A study of Mus musculus with 12 samples.

Results

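The *Ifit* and *Ifitm* families with *Isg15* are interferon-induced genes of the antiviral response, and 8 of them were followed through the adrenals of control (Ctrl) and βCat-GOF mice. They were chosen by gene symbol (*Ifit1*, *Ifit2*, *Ifit3*, *Ifit3b*, *Ifitm1*, *Ifitm2*, *Ifitm3* and *Isg15*) by a rule that uses no measured value, although earlier results of these data were known when it was written, and are 8 of the 39017 genes in the count table. All 8 were measured above the filter on low counts, which left 14953 genes for testing. RNA came from whole adrenals of 12 female mice aged 10 to 11 weeks, 6 per group, kept on a mixed sv129-C57Bl/6 background. The 6 Ctrl mice carried AS Cre/+, although their titles call them wild type, and the 6 βCat-GOF mice carried AS Cre/+ together with Ctnnb1 fl(ex3)/+. In both groups Cre is driven by *Cyp11b2* (AS), the gene of aldosterone synthase in zona glomerulosa (zG) cells, and in βCat-GOF mice this Cre stabilizes β-catenin in those cells. The glands were trimmed of fat but not dissected into zones, so a value mixes zG cells with other cortex, medulla, vessels and immune cells, and fewer cells of a type cannot be told apart from less RNA per cell. All Ctrl titles begin with 1 number and those of βCat-GOF mice with others, so whatever that number stands for cannot be told apart from genotype.

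Interferons bind receptors at the cell surface, the receptors activate JAK kinases, and these phosphorylate STAT factors, which join IRF9 and bind interferon-stimulated response elements (ISREs) in promoters. The Ifit proteins bind viral RNA or the translation machinery, the Ifitm proteins sit in membranes and hinder viruses from fusing with the cell, and Isg15 is a ubiquitin-like protein that is attached to other proteins. Many of these genes also have a basal level without infection.

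The genes lie in 3 places in the mouse genome (GRCm38, GENCODE M21). On chromosome 19 the *Ifit* genes are neighbours on the plus strand, with *Ifit2* (ENSMUSG00000045932) from 34550694 to 34576419, *Ifit3* (ENSMUSG00000074896) from 34583531 to 34588731, *Ifit3b* (ENSMUSG00000062488) from 34607970 to 34613401 and *Ifit1* (ENSMUSG00000034459) from 34640871 to 34650009. On chromosome 7 *Ifitm2* (ENSMUSG00000060591) spans 140954837 to 140955987 on the minus strand, *Ifitm1* (ENSMUSG00000025491) 140967221 to 140969825 on the plus strand and *Ifitm3* (ENSMUSG00000025492) 141009586 to 141010770 on the minus strand. *Isg15* (ENSMUSG00000035692) lies on chromosome 4 from 156199424 to 156200818 on the minus strand. *Ifit3* and *Ifit3b* are near copies, 97.8% identical over 1700 bases, so a read from one could be lost or placed on the other.

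Promoter sequences were available from RefSeq (GRCm38.p6) for all 8 genes as windows of 300 bases, 250 before and 50 after the start. An ISRE core, searched on both strands as TTTC, any 2 bases and TTTC again, was present in the windows of 6 of the 8 genes, and of 3.99% of the 27025 genes with a promoter. Among the other interferon-stimulated genes listed, 9 of the 24 genes with a promoter held it. The stretches that hold it upstream of the start are shown 5′ to 3′ on the strand of the gene. Whether the number or spacing of these matches goes with the size of a change in counts was not tested. Capitals mark the ISRE core, which reads GAAA, any 2 bases and GAAA where it lies on the opposite strand. The stretches are at chr19:34640765-34640870 (plus strand), chr19:34583353-34583472 (plus strand), chr19:34607749-34607868 (plus strand), chr4:156200819-156200938 (minus strand) and chr7:140955988-140956081 (minus strand).
Ifit1: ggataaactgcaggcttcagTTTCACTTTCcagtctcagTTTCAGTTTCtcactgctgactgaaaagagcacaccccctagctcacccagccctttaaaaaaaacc
Ifit3: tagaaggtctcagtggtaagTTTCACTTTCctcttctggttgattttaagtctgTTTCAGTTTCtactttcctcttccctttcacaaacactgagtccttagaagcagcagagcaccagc
Ifit3b: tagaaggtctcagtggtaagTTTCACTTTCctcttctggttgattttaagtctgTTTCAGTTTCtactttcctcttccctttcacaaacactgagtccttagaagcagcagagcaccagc
Isg15: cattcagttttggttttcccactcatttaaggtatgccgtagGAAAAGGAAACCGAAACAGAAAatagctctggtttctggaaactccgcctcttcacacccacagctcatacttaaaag
Ifitm2: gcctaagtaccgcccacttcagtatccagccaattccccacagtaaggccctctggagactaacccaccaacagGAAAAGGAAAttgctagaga

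*Ifit1* holds 2 matches whose first bases are 19 bases apart, at -104 and -85 from the RefSeq start. *Ifit3* and *Ifit3b* hold 2 each, 34 bases apart, and the stretches printed for these genes are the same in all 120 bases. *Isg15* holds 3 matches that overlap one another, each beginning 6 bases after the previous one. *Ifitm2* holds 1, at -46, and *Ifitm3* holds 2 that lie just after the start, at 3 and 20. The windows of *Ifit2* and *Ifitm1* held none, which says only that these letters are not in them. A GAS core (TTCNNNGAA, an element bound by STAT dimers) was present in the windows of 2 of the 8 genes, *Ifit2* and *Ifitm3*, against 9.55% of all genes with a promoter, and the one in *Ifitm3* overlaps an ISRE match. These matches describe the sequence and do not show that a factor binds there.

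Between 14090378 and 25625494 reads per Ctrl mouse and between 13484675 and 24951480 per βCat-GOF mouse were counted on genes, so that 3 counts correspond to 0.117 to 0.222 CPM (the count as a share of all counts in the library, scaled to the same total). Levels below are normalized counts, the count divided by a size factor for each library, and are given as mean ± SD with n = 6 mice per group. A gene was called changed with a fold change over 1.4, an adjusted p under 0.05 in edgeR's quasi-likelihood test and a mean over 100 normalized counts in all mice. Under this rule 0.869% of the genes tested were lower in βCat-GOF adrenals and 1.48% were higher. Every βCat-GOF mouse was below every Ctrl mouse in 1.16% of the genes tested and above every Ctrl mouse in 1.61%. The adrenal markers *Star*, *Cyp11a1* and *Cyp11b1* of the cortex and *Th* of the medulla were abundant in every library, and of 5 zG markers 3 were higher in βCat-GOF adrenals. The labels do not say whether mice whose titles share a stem (3 pairs) came from separate animals, and the p-values measure the spread between these 12 libraries.

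The *Ifit* genes and *Isg15* fell in βCat-GOF adrenals to between 27.5% and 52.9% of their Ctrl level, whereas the *Ifitm* genes stood at 62.9% to 83.9% of it and did not pass the test. In all, 5 of the 8 genes were called lower (0.869% of all genes tested) and none higher. In 4 of the 8 every βCat-GOF mouse was below every Ctrl mouse (1.16% of all genes tested), and in none was every βCat-GOF mouse above (1.61%). All 8 had a log2 fold change under 0, as did 50% of all genes tested. The median log2 fold change was -1.05 over the 8 genes, -1.62 over the 4 *Ifit* genes, -0.45 over the 3 *Ifitm* genes and 0.00 over all genes tested.

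**Figure D1:**
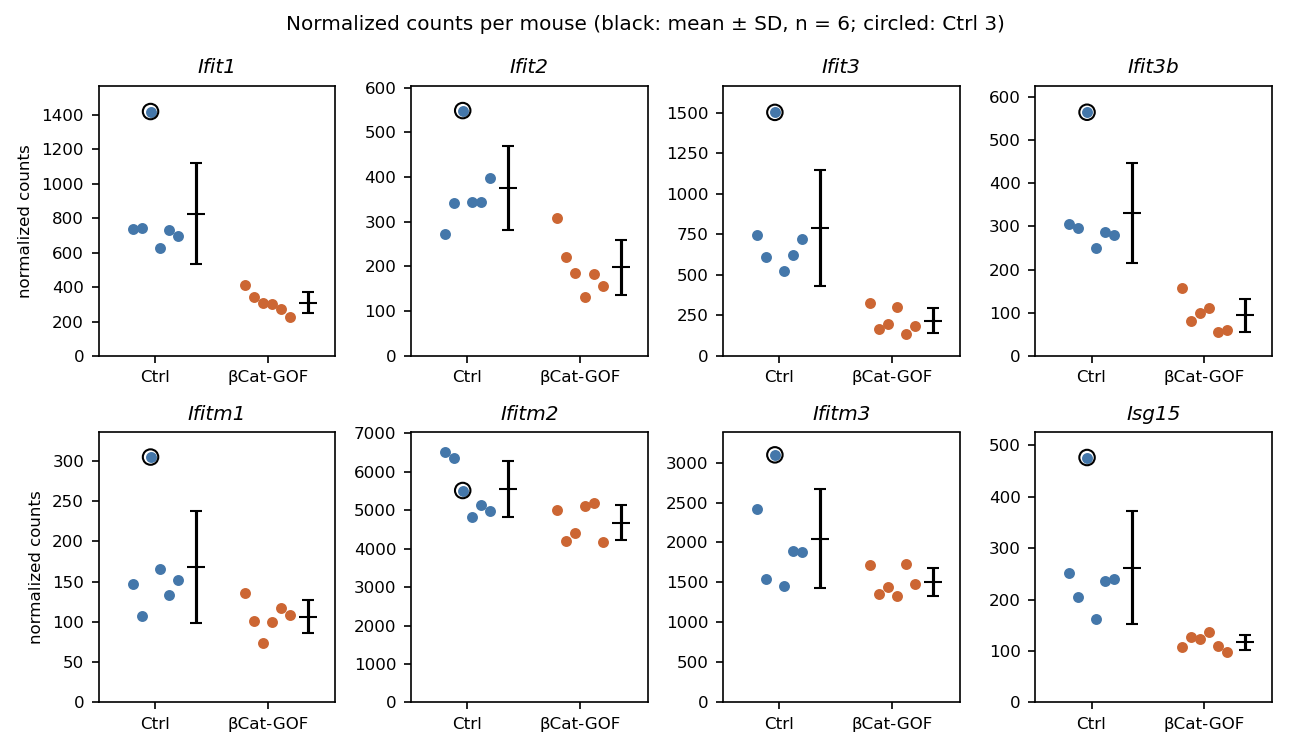
Normalized counts (vertical axes, from 0) of the 8 genes in each of 6 Ctrl and 6 βCat-GOF mice, 1 point per mouse, with mean ± SD in black. The groups do not overlap for Ifit1, Ifit3, Ifit3b and Isg15, they overlap for the other genes, and the circled mouse Ctrl 3 is the highest Ctrl mouse for every gene except Ifitm2.

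*Ifit3*, whose protein works in a complex with the other Ifit proteins on viral RNA, ranged in Ctrl mice from 526 to 1503 normalized counts with a median of 671, and in βCat-GOF mice from 133 to 326 with a median of 189. The lowest Ctrl mouse was above the highest βCat-GOF mouse. *Ifit3* fell from 788 ± 359 to 217 ± 77.8 normalized counts. The log2 fold change was -1.86 ± 0.28 (SE; edgeR's quasi-likelihood test, adjusted p = 0.0032). In 12 fits that each left out 1 mouse, its log2 fold change lay between -2.02 and -1.57 and the gene was called lower in all 12.

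*Ifit3b*, the neighbouring near copy, ranged from 250 to 565 normalized counts in Ctrl mice (median 292) and from 56.2 to 157 in βCat-GOF mice (median 90.2). Again no βCat-GOF mouse reached the lowest Ctrl mouse. *Ifit3b* fell from 331 ± 116 to 94.0 ± 37.4 normalized counts. The log2 fold change was -1.81 ± 0.27 (SE; edgeR, adjusted p = 0.0032). When the counts of *Ifit3* and *Ifit3b* were summed into 1 gene before the fit, so that reads placed on the wrong copy no longer mattered, the log2 fold change was -1.85 (edgeR, adjusted p = 0.0027).

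*Ifit1*, which binds the 5′ end of foreign RNA and keeps it from being translated, ranged from 629 to 1420 normalized counts in Ctrl mice (median 736) and from 228 to 410 in βCat-GOF mice (median 306). The Ctrl values formed a narrow cluster with 1 mouse far above it, since the 5 mice other than Ctrl 3 lay between 629 and 744. *Ifit1* fell from 827 ± 294 to 310 ± 62.1 normalized counts. The log2 fold change was -1.42 ± 0.20 (SE; edgeR, adjusted p = 0.0021). It was called lower in all 12 fits without 1 mouse, with log2 fold changes from -1.51 to -1.19.

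*Ifit2*, an RNA-binding member of the same family, ranged from 274 to 549 normalized counts in Ctrl mice (median 344) and from 133 to 309 in βCat-GOF mice (median 185). The groups overlapped through 1 mouse of each, as βCat-GOF 1 lay above the lowest Ctrl mouse, Ctrl 1, and the other 5 βCat-GOF mice were below every Ctrl mouse. *Ifit2* fell from 375 ± 93.8 to 198 ± 62.0 normalized counts. The log2 fold change was -0.92 ± 0.21 (SE; edgeR, adjusted p = 0.029). This call was the least stable of the 5, being kept in 7 of the 12 fits without 1 mouse. It was lost without Ctrl 3, where the log2 fold change was -0.77 (edgeR, adjusted p = 0.056), and without Ctrl 6, βCat-GOF 3, βCat-GOF 5 or βCat-GOF 6, with adjusted p from 0.053 to 0.064.

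*Isg15* ranged from 163 to 476 normalized counts in Ctrl mice (median 238) and from 97.6 to 136 in βCat-GOF mice (median 116). The βCat-GOF mice were close to each other, with a coefficient of variation of 12.0% against 42.0% in Ctrl mice, and all lay below the lowest Ctrl mouse. *Isg15* fell from 262 ± 110 to 117 ± 14.04 normalized counts. The log2 fold change was -1.17 ± 0.22 (SE; edgeR, adjusted p = 0.010). It was called lower in all 12 fits without 1 mouse. Part of its transcript (63.8%) matches a second locus, AC151275.1, at 95.2% identity in the longest stretch, so reads of that stretch may not be placed uniquely.

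The *Ifitm* genes were lower in mean but none was called. *Ifitm1*, which acts mostly at the cell surface, ranged from 108 to 305 normalized counts in Ctrl mice (median 150) and from 74.3 to 136 in βCat-GOF mice (median 105), with a log2 fold change of -0.67 ± 0.24 (SE; edgeR, adjusted p = 0.14). *Ifitm3*, the member of endosomal membranes best known for restricting influenza virus, ranged from 1453 to 3096 in Ctrl mice (median 1886) and from 1327 to 1732 in βCat-GOF mice (median 1461), with a log2 fold change of -0.45 ± 0.16 (SE; edgeR, adjusted p = 0.15). For both genes 3 βCat-GOF mice were below every Ctrl mouse and 3 lay within the Ctrl range. *Ifitm2*, also found in endosomes, ranged from 4819 to 6507 in Ctrl mice (median 5322) and from 4185 to 5174 in βCat-GOF mice (median 4699), with a log2 fold change of -0.25 ± 0.10 (SE; edgeR, adjusted p = 0.18). Its groups overlapped in the same way, with 3 βCat-GOF mice below every Ctrl mouse. All 3 genes had an unadjusted p under 0.05 in edgeR and none was called by DESeq2, and a p that misses the threshold does not show that they did not differ. Without Ctrl 3 the log2 fold change was -0.40 for *Ifitm1* and -0.28 for *Ifitm3*, 1.5 or more times smaller than with it. Of the exons of *Ifitm2*, 40.9% are shared with *Gm45717* on the same strand.

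To ask whether *Ifit1* changed by another amount than *Ifitm3* or *Isg15*, the log2 ratio of their counts was taken within each library, where the size factor cancels. Of the 3 ratios compared, that of *Ifit1* over *Ifitm3* lay between -1.71 and -1.05 in Ctrl mice and between -2.69 and -1.99 in βCat-GOF mice. All 6 βCat-GOF mice were below all 6 Ctrl mice. The mean went from -1.31 ± 0.24 to -2.30 ± 0.31, a difference of -0.98 (exact permutation test over all splits of the mice, two-sided, p = 0.0022, the smallest it can give; 0.0065 adjusted over the 3 ratios). The decrease of *Ifit1* was therefore larger than that of *Ifitm3* by more than the spread between mice. The ratio of *Ifit1* over *Isg15* was 1.69 ± 0.18 in Ctrl and 1.39 ± 0.28 in βCat-GOF mice (exact permutation test, adjusted p = 0.088). The difference was -0.30, and its adjusted p depended on a single library. Without βCat-GOF 1 the difference was larger, at -0.40, with an adjusted p of 0.0065 in the exact permutation test. The ratio of *Ifit3* over *Ifit3b* was 1.21 ± 0.16 and 1.22 ± 0.26 (exact permutation test, p = 0.97), a difference well within the spread between mice.

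**Figure D2:**
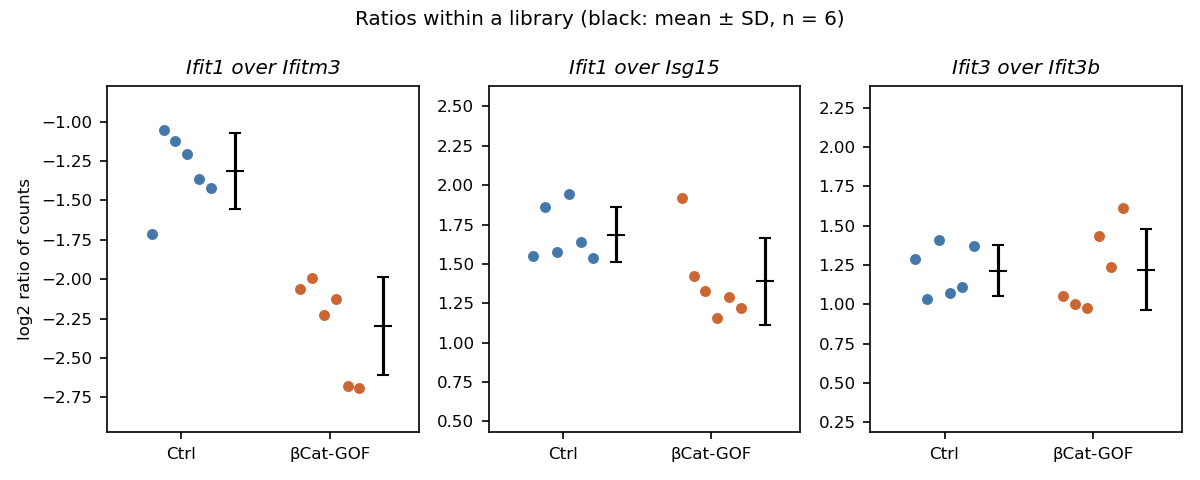
Log2 ratio of counts within each library (vertical axes, all of the same span) for 3 pairs of genes, 1 point per mouse, with mean ± SD in black (n = 6). The groups separate for Ifit1 over Ifitm3, overlap through 1 βCat-GOF mouse for Ifit1 over Isg15, and overlap for Ifit3 over Ifit3b.

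Levels of different genes were compared per exon length, as TPM, which is the count divided by exon length and scaled so that all libraries have equal sums. In Ctrl adrenals *Ifitm2* was highest at 1347 ± 195 TPM (n = 6), followed by *Ifitm3* at 476 ± 129 TPM, and each of these stood apart from the next gene in every mouse. *Ifit3* at 71.1 ± 30.3 TPM, *Isg15* at 54.6 ± 21.4 TPM and *Ifit1* at 49.2 ± 16.3 TPM had overlapping ranges. Within each Ctrl library, however, *Ifit3* was above both *Isg15* and *Ifit1*. The ranges of *Ifit3b* at 26.1 ± 8.53 TPM and *Ifitm1* at 24.2 ± 9.25 TPM also overlapped, and *Ifit2* was lowest in mean at 15.1 ± 3.53 TPM. In βCat-GOF adrenals *Ifitm2* was at 1101 ± 190 TPM and *Ifitm3* at 344 ± 70.5 TPM. *Isg15* (23.8 ± 3.63 TPM), *Ifit3* (19.4 ± 8.51 TPM), *Ifit1* (18.2 ± 5.73 TPM) and *Ifitm1* (15.2 ± 4.48 TPM) followed with overlapping ranges. *Ifit2* (7.96 ± 3.50 TPM) and *Ifit3b* (7.38 ± 3.72 TPM) were lowest. *Ifit3* thus stood above *Isg15* in the Ctrl means and in each Ctrl library. It stood below *Isg15* in the βCat-GOF means and in every βCat-GOF library except βCat-GOF 1 (34.2 against 26.2 TPM). This change of order was not tested.

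**Figure D3:**
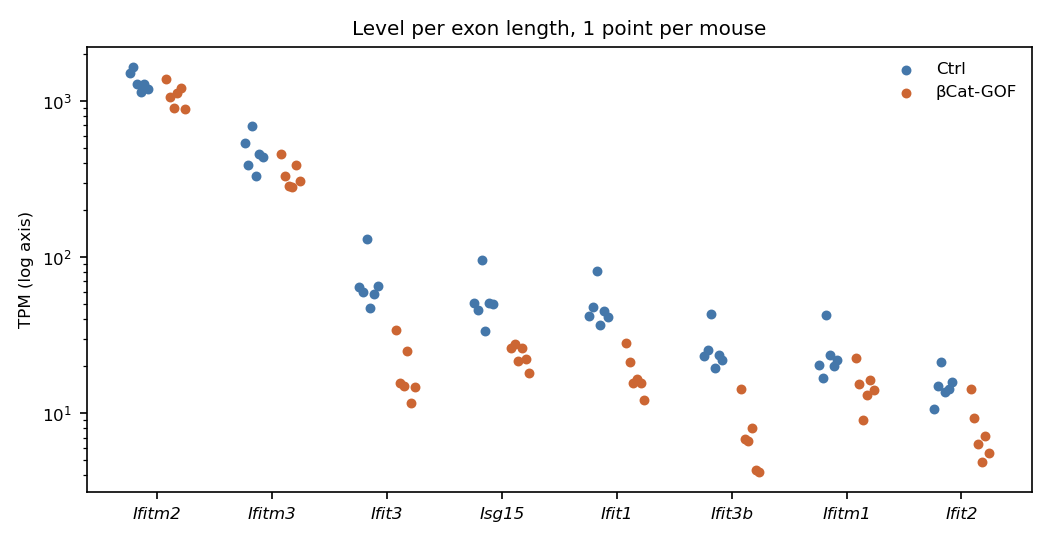
TPM (logarithmic vertical axis) of the 8 genes in each Ctrl and βCat-GOF mouse, 1 point per mouse, ordered by Ctrl mean. Ifitm2 and Ifitm3 stand above the other 6 genes in both groups, and the largest gaps between the group means are in Ifit3, Ifit3b and Ifit1.

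The Ctrl mouse with the highest value was Ctrl 3 for 7 of the 8 genes. It stood at 2.00 times the mean of the other 5 Ctrl mice for *Ifit1*, 2.33 times for *Ifit3*, 1.99 times for *Ifit3b*, 2.18 times for *Isg15* and 2.16 times for *Ifitm1*, but at 0.992 times for *Ifitm2*. The mouse whose title shares a stem with it, Ctrl 4, had the lowest Ctrl value of *Ifit1*, *Ifit3*, *Ifit3b*, *Ifitm2*, *Ifitm3* and *Isg15*. In the sum of the other interferon-stimulated genes listed, Ctrl 3 was the highest Ctrl mouse too (35652 normalized counts, against 26431 to 34315). Ctrl 3 was also the highest Ctrl mouse in the summed red cell markers (6687 normalized counts, against 2260 to 4006 in the other Ctrl mice) and in the summed B cell markers (107, against 44.7 to 55.01). The same mouse was highest among Ctrl mice in the summed zG markers (30349, against 21653 to 25179) and medulla markers (236513, against 77457 to 230377). The part of these cells in its values was not tested. In βCat-GOF mice, βCat-GOF 1 was highest for 5 of the 8 genes, *Ifit1*, *Ifit2*, *Ifit3*, *Ifit3b* and *Ifitm1*.

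Within the groups, *Ifit1* was correlated with each of the other 7 genes across 6 mice (14 relations). In Ctrl mice Pearson's r with *Ifit3b* was 0.998 (Spearman's rho 0.94; exact permutation p = 0.0083 and 0.017; adjusted 0.12 and 0.23), with *Ifit3* 0.96 (rho 0.60; exact permutation p = 0.047 and 0.24) and with *Isg15* 0.95 (rho 0.60; exact permutation p = 0.047 and 0.24). None of the 14 relations had an adjusted p under 0.05. The median r over the 7 genes was 0.83 in Ctrl mice and went to -0.41 without the 2 mice farthest from the median of *Ifit1*. Without them r was 0.80 with *Ifit3b*, -0.51 with *Ifit3* and -0.41 with *Isg15*, so that the relations with *Ifit3* and *Isg15* rest on those 2 mice. In βCat-GOF mice the median r was 0.37, and 0.26 without the 2 farthest mice.

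The *Ifit* family has relatives in the same cluster that are not among the 8. *Ifit1bl1* and *Ifit1bl2*, listed in the count table under older names and matched by identifier, lie on the minus strand between the *Ifit* genes of chromosome 19. *Ifit1bl1* was at 77.4 ± 9.93 normalized counts in Ctrl and 29.2 ± 4.29 in βCat-GOF mice, a log2 fold change of -1.41 ± 0.17 (SE; edgeR, adjusted p = 0.00066). *Ifit1bl2* was at 57.6 ± 8.89 and 19.5 ± 5.19, a log2 fold change of -1.55 ± 0.21 (SE; edgeR, adjusted p = 0.0019). For both genes every βCat-GOF mouse was below every Ctrl mouse, and only the limit of 100 on the mean count kept them from being called. Ctrl 3 was the highest Ctrl mouse for both, at 90.7 against 85.2 in the next mouse for *Ifit1bl1* and 66.3 against 65.8 for *Ifit1bl2*. The 2 ISRE matches in the promoter window of *Ifit1bl2* are the same bases as the 2 matches of *Ifit1*, read on the opposite strand. All 6 protein-coding genes of the *Ifit* cluster were thus lower in βCat-GOF adrenals with an adjusted p under 0.05 (edgeR), as were 1.52% of all genes tested. Among the other *Ifitm* genes, *Ifitm10* had a log2 fold change of -0.36 (edgeR, adjusted p = 0.35), and *Ifitm5*, *Ifitm6* and *Ifitm7* were below the filter, with at most 17, 7 and 4 counts in a mouse.

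Transcripts of the interferons themselves were close to the limit of detection. Of 21 interferon genes listed, 17 are in the table, none passed the filter on low counts, and 11 had no count in any mouse. The highest count of any of them in a library was 13, for *Ifnl3*, and *Ifnb1* and *Ifng* reached at most 1 and 2 counts. A difference between the groups was not detectable at this depth. The receptors were well expressed, and of the 5 tested none was called and none had an unadjusted p under 0.05 in edgeR (0 called by DESeq2). *Ifnar1* and *Ifnar2*, the receptor chains for type I interferons, had log2 fold changes of 0.11 ± 0.08 and -0.03 ± 0.10 (SE; edgeR, adjusted p = 0.42 and 0.91), *Ifngr1*, *Ifngr2* and *Il10rb* lay between -0.06 and -0.02, and *Ifnlr1* was below the filter.

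Of the 10 JAK kinases, STAT and IRF factors, 1 was called lower (0.869% of all genes tested) and none higher, with a median log2 fold change of -0.14. *Irf7*, a factor that is itself induced by interferon and drives interferon genes, ranged from 540 to 896 normalized counts in Ctrl mice (median 704) and from 340 to 539 in βCat-GOF mice (median 462). No βCat-GOF mouse reached the lowest Ctrl mouse, and the log2 fold change was -0.67 ± 0.14 (SE; edgeR, adjusted p = 0.015). With 1 mouse per title stem *Irf7* was no longer called (log2 fold change -0.50; edgeR, adjusted p = 0.077). *Irf9*, a DNA-binding partner of STAT factors, passed the adjusted p but not the fold change, at -0.47 ± 0.11 (SE; edgeR, adjusted p = 0.037). The values were -0.37 for *Stat2* (edgeR, adjusted p = 0.087), -0.24 for *Irf1* (0.36) and 0.20 for *Stat3* (0.14). Of the 12 sensors of foreign nucleic acid and their adaptors, 1 was called lower (0.869% of all genes tested), and the median of the list was -0.33. The gene called was *Tlr3*, the endosomal receptor for double-stranded RNA (-0.60 ± 0.13 SE; edgeR, adjusted p = 0.022). The log2 fold change was -1.16 for *Zbp1* (edgeR, adjusted p = 0.079), -0.73 for *Tlr9* (0.19), -0.52 for *Tlr7* (0.17), -0.47 for *Ifih1* (0.022) and -0.41 for *Ddx58* (0.048), and the decreases of *Ifih1* and *Ddx58* were under the fold limit.

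Isg15 is joined to its targets by the enzymes Uba7, Ube2l6 and Herc6 and removed by Usp18, which also blocks the type I receptor. Of the 5 genes of this list, only *Usp18* was called lower (0.869% of all genes tested). It ranged from 184 to 434 normalized counts in Ctrl mice (median 273) and from 116 to 157 in βCat-GOF mice (median 126), without overlap, and fell from 277 ± 85.6 to 129 ± 15.6 with a log2 fold change of -1.11 ± 0.18 (SE; edgeR, adjusted p = 0.0049). The genes of the conjugating enzymes had smaller differences that did not pass, with -0.46 for *Uba7* (edgeR, adjusted p = 0.21), -0.30 for *Ube2l6* (0.22) and -0.30 for *Herc6* (0.31), and *Trim25* was at 0.08 (0.75). *Usp18* was also the single gene called among 6 inhibitors of interferon signaling, where *Socs3* had -0.95 (edgeR, adjusted p = 0.21) and *Socs1* 0.59 (0.42). The values of *Irf2*, *Ptpn2* and *Pias1* lay between -0.11 and 0.07.

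Of 33 other interferon-stimulated genes listed, 32 were tested and all 32 had a log2 fold change under 0, between -1.26 and -0.07 with a median of -0.58 (all genes tested, 0.00). Of these, 7 were called lower (0.869% of all genes tested) and none higher. *Trim30a*, an inducible member of the Trim family, had -1.26 ± 0.15 (SE; edgeR, adjusted p = 0.00066), *Rtp4* -1.03 ± 0.17 (0.0050), *Ifi44* -0.89 ± 0.17 (0.011) and *Oas1a*, a synthetase of the RNase L pathway, -0.88 ± 0.23 (0.048; 0.097 without Ctrl 3). Of the same size but not called were *Oas1g* (-0.97; edgeR, adjusted p = 0.0068), whose mean count was under 100, and the chemokine gene *Cxcl10* (-0.96; adjusted p = 0.14). Without Ctrl 3 the number called was 4, and it was also 4 without Ctrl 1, Ctrl 5, βCat-GOF 5 or βCat-GOF 6. In the ordering of all 14953 genes from the most negative log2 fold change, *Ifit3* was at place 27, *Ifit3b* at 30, *Ifit1* at 63, *Isg15* at 120, *Ifit2* at 300, *Ifitm1* at 761, *Ifitm3* at 1588 and *Ifitm2* at 2913.

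**Figure D4:**
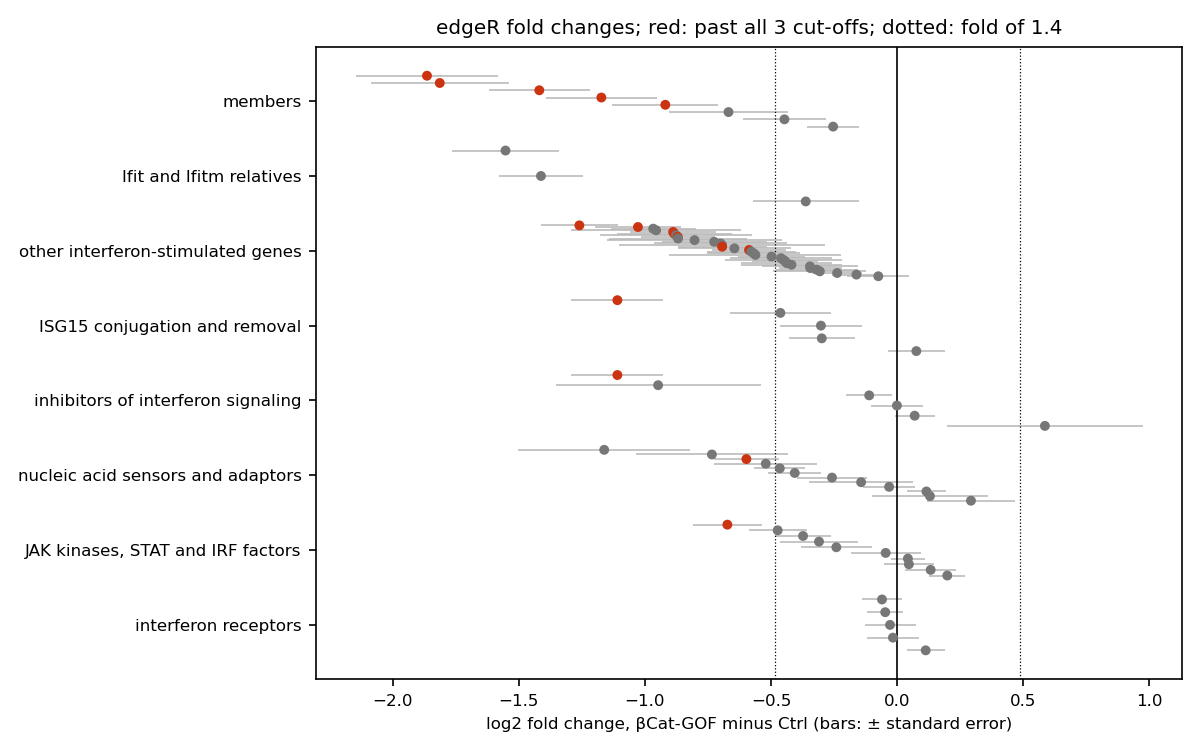
Log2 fold change of βCat-GOF over Ctrl (horizontal axis, with standard errors) of the 8 genes, labelled members, and of the genes of 7 interferon pathway lists, 1 point per gene, red where the gene passed all 3 cut-offs. Ifit3, Ifit3b, Ifit1, Ifit1bl1 and Ifit1bl2 lie left of every gene of the other lists, Ifit2 and Isg15 lie among the lowest of those, and the 5 interferon receptors lie within 0.11 of 0.

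**Figure D5:**
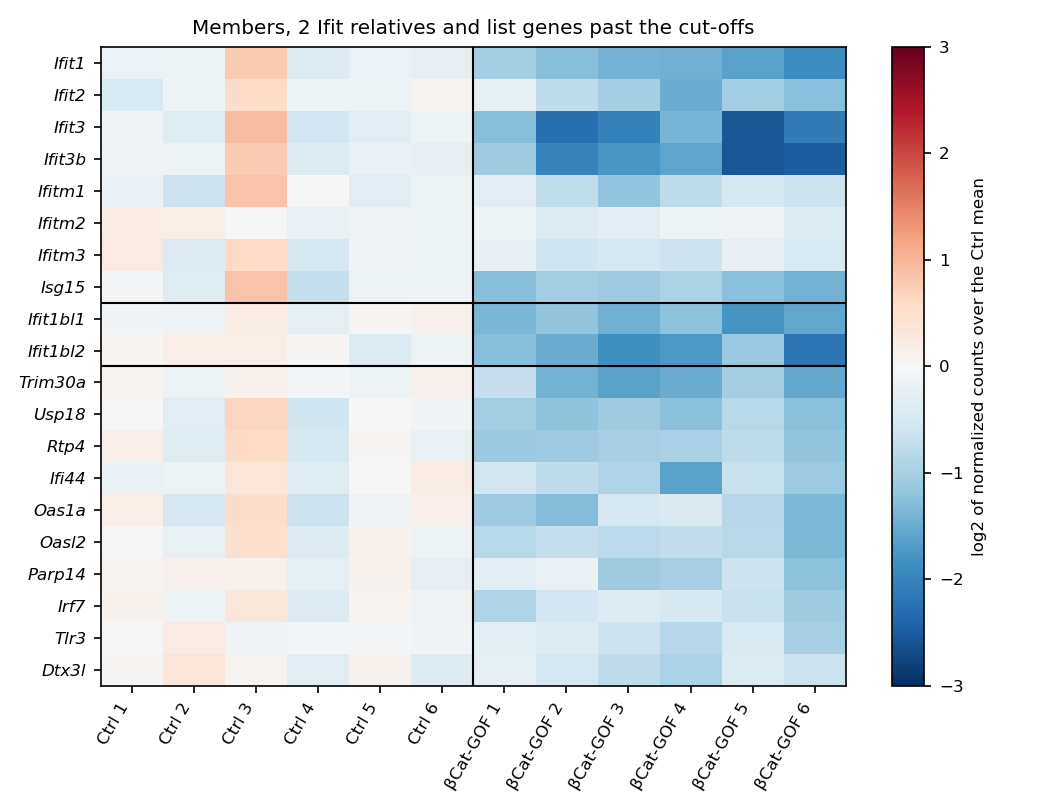
Log2 of normalized counts over the Ctrl mean (color) for the 8 genes, Ifit1bl1, Ifit1bl2 and the listed genes called changed, with 1 column per mouse and 1 line per gene. Ctrl 3 is above the Ctrl mean for every gene except Ifitm2 and Tlr3. The 6 βCat-GOF mice are below the Ctrl mean for every gene shown, though only slightly for Ifitm2.

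Genes whose values over the 12 mice were most like those of the 4 *Ifit* genes and *Isg15* were looked for by Pearson's r of log2 CPM, after the mean of each group had been subtracted. The 10 highest were *Ccdc112* (r = 0.94), *Tapbpl* (0.90), *Hbb-bt* (0.89), *Gm1673* (0.88), *Plcl2* (0.88), *B4galt4* (0.87), *Wfdc17* (0.86), *Rnf157* (0.86), *Parp9* (0.85) and *Hba-a2* (0.85). These r describe 12 libraries in which Ctrl 3 is far from the others, and without it they lay between 0.69 and 0.88. The same r was 0.69 for *Ifitm1*, 0.69 for *Ifitm3* and 0.19 for *Ifitm2*, and 0.28, 0.36 and 0.31 without Ctrl 3. The 10 genes above were picked as the highest, so they give no measure of how alike the *Ifitm* genes are. *Hbb-bt* and *Hba-a2* encode globins of red cells, whose summed markers overlapped between the groups (2260 to 6687 normalized counts in Ctrl, 2581 to 4842 in βCat-GOF mice), and no red cell marker was called.

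Some markers of immune cells were lower in βCat-GOF adrenals as well, and no marker of vessel cells was called. Of 15 macrophage and myeloid markers, 11 had a log2 fold change under 0 (50% of all genes tested), with a median of -0.38. Of the 15, 2 were called lower (0.869% of all genes tested) and 1 higher (1.48%). Their log2 fold changes ran from -1.39 to 0.68, and the marker called higher is not named here. The markers *Itgax* (-1.39 ± 0.20 SE; edgeR, adjusted p = 0.0020) and *Adgre1* (-0.78 ± 0.20 SE; edgeR, adjusted p = 0.046) were those called lower, and without Ctrl 3 *Adgre1* was no longer called (edgeR, adjusted p = 0.094). The summed markers ranged from 10903 to 20048 normalized counts in Ctrl and from 8909 to 14584 in βCat-GOF mice, and the part of these cells in the lower *Ifit* and *Isg15* values was not tested. Ctrl 1 had the highest sum of these markers and Ctrl 3 the most *Ifit1*, and how the markers relate to *Ifit1* over the mice was not tested. All 7 endothelial markers had a log2 fold change under 0 (50% of all genes tested) with none called (2 at an unadjusted p under 0.05 in edgeR, 0 called by DESeq2). Their sums overlapped (12744 to 15998 and 11196 to 16175). The T cell and NK cell markers were low, with sums of 72.8 to 123 in Ctrl and 40.2 to 86.6 in βCat-GOF mice, of 9 genes 3 were tested and none was called, and *Cd3e* had at most 9 counts in a mouse. The log2 fold changes of the 3 tested ran from -1.35 to 0.14, 2 of them under 0, with a median of -1.04. The lowest was that of *Cd4*, at 24.2 ± 9.52 normalized counts in Ctrl and 9.49 ± 2.51 in βCat-GOF mice (log2 fold change -1.35 ± 0.32 SE; edgeR, adjusted p = 0.033, and 0.072 without Ctrl 3), with a mean count under the limit of 100. Only *Cd4* had an unadjusted p under 0.05 in edgeR. The part of these cells in the *Ifit* and *Isg15* values was not tested. B cell markers summed to 44.7 to 107 and 16.6 to 118 with none called. Of the plasmacytoid dendritic cell markers, *Siglech* was at 22.1 ± 6.78 and 29.7 ± 15.3 normalized counts and *Ccr9* had at most 11 counts in a mouse, whereas *Ly6d* was called higher (1.64 ± 0.25 SE; edgeR, adjusted p = 0.0032). Of these 6 markers 5 were tested, 2 with a log2 fold change under 0. Their median was 0.07, and only *Ly6d* was called. *Ly6g*, a defining neutrophil marker, had 0 counts in all mice.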

How the data were processed

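Each of 12 libraries (6 Ctrl, 6 βCat-GOF) holds whole-adrenal RNA. The authors prepared them with a TruSeq mRNA kit, removed adapters with cutadapt, used STAR for alignment to mm10, and assigned unique reads to genes with featureCounts 1.4.4. The annotation release and the strand setting are not given in the sources used here. They deposited raw counts for 39017 genes, and a table of normalized signal, equal to the counts over 1 size factor per library, used only to check the factors. Columns left unused numbered 0. Of the gene identifiers, 966 have no symbol.

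Counts were tested with the quasi-likelihood test of edgeR 4.0.16 (R 4.3.3), two-sided, after TMM normalization and filterByExpr. P-values were adjusted by Benjamini-Hochberg over all 14953 genes kept. The study's cut-offs were used: fold change over 1.4, adjusted p under 0.05, mean normalized count over 100. Normalized counts used DESeq2 1.42.0 size factors. Ratios within a library had 0.5 counts added. Permutation tests (scipy 1.17.1) ran over all splits of the mice. TPM used GENCODE M21 exon lengths. Copies were found with blastn 2.17.0, at 95% identity or more over at least 10% of the transcript.

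The members and lists were chosen with earlier results of these data known. Named are the 8 genes, the relatives, ligands, receptors and Isg15 enzymes, up to 6 genes per other list by size of change, and the 10 genes most alike in pattern. Some genes of the lists are not reported here. Cell markers are given by counts and sums. Most of those named with values were chosen as called or as close to 0, but not every called marker is named. The promoter stretches printed were chosen after the matches were seen. The edgeR step was tested on simulated data. Alternatives were DESeq2 with and without its prior, DESeq2 size factors in edgeR, other filters, adjusted p alone, 1 surrogate variable (sva 3.50.0), 1 mouse per title stem, leaving out the βCat-GOF mouse with another title number, and leaving out each mouse. Libraries sharing a title stem differed by amounts within the range of the other pairs of their group, so all 12 were kept.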

Additional observations from a re-analysis of the deposited data

Results flagged for a closer look

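In 38 groups of 6 mice, 9 had a mouse far from the rest, with a gap to its nearest neighbour over 0.625 of the whole range (Dixon's test). Chance gives such a value in about 1 in 20 groups, and the genes of 1 library are not independent of each other. The mouse Ctrl 3 was the far one in 6 of these groups. Its normalized counts were 1420 for *Ifit1* (nearest Ctrl mouse 744), 1503 for *Ifit3* (746), 565 for *Ifit3b* (305), 305 for *Ifitm1* (166) and 476 for *Isg15* (252), and its B cell markers summed to 107 (55.01). Among βCat-GOF mice the B cell markers of βCat-GOF 1 summed to 118 (nearest 49.2). The plasmacytoid dendritic cell markers of βCat-GOF 5 summed to 35205 (nearest 19456), of which a single gene, *Ly6d*, made up 30837 of 35714 counts before normalization, and the adipocyte markers of Ctrl 4 to 16666 (nearest 8047). No mouse was far in any of the 8 genes among βCat-GOF mice.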

How the results depend on the processing

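The number of the 8 genes called lower was 5, and 4 or 5 under every alternative run, including DESeq2, other filters, 1 surrogate variable and leaving out each mouse. *Ifit1*, *Ifit3*, *Ifit3b* and *Isg15* were called throughout, and the *Ifitm* genes under none. *Ifit2* lost its call in 5 of 12 fits without 1 mouse (log2 fold change -1.09 to -0.77). In the lists, JAK kinases, STAT and IRF factors called lower were 1, and 2 with the surrogate variable, 0 with 1 mouse per title stem (*Irf7* lost), 2 by adjusted p alone and 1 to 2 without 1 mouse. Sensors called lower were 1, and 2 by DESeq2 with or without its prior, 3 by adjusted p alone and 1 to 4 without 1 mouse. Other interferon-stimulated genes called lower were 7, and 10 by DESeq2, 9 with its prior, 4 with 1 mouse per title stem, 4 without the mouse of another title number and 4 to 8 without 1 mouse. The ratio of *Ifit3* over *Ifit3b* differed by 0.0059, by -0.029 with 5 counts added and by -0.073 to 0.054 without 1 mouse, none with a p under 0.05. That of *Ifit1* over *Isg15* differed by -0.47 with 1 mouse per title stem (exact permutation test, adjusted p = 0.024) and by -0.40 to -0.24 without 1 mouse. The median r of *Ifit1* with the other genes in Ctrl mice turned from 0.83 to -0.41 without the 2 farthest mice. The causes were not tested. No paired analysis was possible because the labels give the groups no shared replicate numbers. Depth limits the interferon genes, which had at most 13 counts in a library.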
